A study of Mus musculus with 2 samples.

Results

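Lrat fibroblasts are collagen-expressing lung cells that carry the transcript of lecithin retinol acyltransferase, the enzyme that turns retinol into its storage ester. They were chosen by raw unique molecular identifiers (UMIs, each a captured transcript molecule) in barcodes with at least 200 genes and at most 10% mitochondrial UMIs. A member had a sum of at least 3 for Col1a2, Col3a1 and Pdgfra and at least 2 for Lrat. It had at most 1 for Hhip, at most 1 for Myh11 and Cnn1 together, at most 1 for Cldn5 and Cdh5 together, and 0 for Epcam and Ptprc. The rule found 297 cells among 15578 that passed the gene and mitochondrial limits: 242 of 8417 in the wild-type (WT) library and 55 of 7161 in the p47phox-KI (KI) library. Without the Lrat condition the same rule gave a stromal gate of 1147 WT and 1063 KI cells, of which members were 21.1% and 5.17%. Lrat itself chose these cells, so its presence in them is no finding.

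The study compared single cells of C57BL/6 mouse lung between 1 wild-type library and 1 library labelled p47phox-KI, both from acute lung injury. Perfused lungs were digested with collagenase, stained with a viability dye and anti-CD45.2 (a leukocyte marker), sorted and run on the 10x Chromium V3 3′ chemistry, per the labels' protocols. The labels do not give the agent or day of injury, the sorted fraction, the sex or age of the mice, the number of animals per library or the knocked-in allele, and there is no uninjured group. With 1 library per genotype no difference between WT and KI can be tested: each ratio below compares 2 libraries, its interval covers counting error only, and genotype, animal and library cannot be told apart.

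Vitamin A reaches tissues as retinol and is esterified inside the cell by Lrat for storage in lipid droplets. Released retinol is oxidised to retinal by alcohol and retinol dehydrogenases and then to retinoic acid by the aldehyde dehydrogenases of the Aldh1a family, while the Cyp26 enzymes degrade retinoic acid. Retinoic acid acts through the nuclear receptors of the Rar and Rxr families. Stellate cells of the liver are the classical Lrat-expressing store, and lipid-laden interstitial fibroblasts have been described as a retinoid store in the lung alveolus.

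Lrat (ENSMUSG00000028003) is a protein-coding gene on the minus strand of chromosome 3, at 82892579 to 82903973 in GRCm38. The 250 bases upstream of its RefSeq start site (GRCm38.p6, chr3:82903975-82904224, minus strand) are shown because Lrat is the gene that defines the cells. Rarb, the classical target of retinoic acid, is shown beside it (chr14:16575477-16575726, minus strand) since its transcript is the usual readout of retinoic acid in a cell. Both are from RefSeq, written 5′ to 3′ along the gene, with matches to 4 searched motifs in capitals.
Lrat: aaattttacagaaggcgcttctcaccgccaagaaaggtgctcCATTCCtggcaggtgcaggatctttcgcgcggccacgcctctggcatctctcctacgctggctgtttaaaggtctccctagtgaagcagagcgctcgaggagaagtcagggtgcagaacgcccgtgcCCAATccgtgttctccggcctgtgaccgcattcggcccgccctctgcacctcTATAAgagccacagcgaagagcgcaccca
Rarb: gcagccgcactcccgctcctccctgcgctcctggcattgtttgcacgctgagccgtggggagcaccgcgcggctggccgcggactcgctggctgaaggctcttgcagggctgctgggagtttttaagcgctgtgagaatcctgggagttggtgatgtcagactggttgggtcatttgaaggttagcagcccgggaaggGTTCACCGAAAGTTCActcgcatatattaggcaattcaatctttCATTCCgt
The motifs were searched on both strands and did not overlap one another. In the Lrat sequence the TATA core TATAA lies 29 to 25 bases upstream of the start, a motif held by 22.8% of 32851 promoters over the same 250 bases. CCAAT lies 81 to 77 bases upstream, in 33.8% of promoters, and GGAATG, the element bound by TEAD factors, lies on the other strand 208 to 203 bases upstream in Lrat and 8 to 3 in Rarb, and is in 12.6% of promoters. A direct repeat of GTTCA with 6 bases between its parts, a form of the element bound by retinoic acid receptors, was found in the Rarb sequence 52 to 37 bases upstream and in 0.067% of promoters, and its letters are not in this window of Lrat. These matches are letters in a window and were tied to no measurement of binding.

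The deposited libraries held 43376713 WT and 43445797 KI UMIs over 10473 and 9120 barcodes, and shared 30 barcode sequences, 1 of them in a WT member. Members had a median of 3403.5 UMIs in WT (503 to 20404) and 5270 in KI (1312 to 12920), so the KI members were deeper. UMIs of haemoglobin genes, a sign of blood RNA, were found in 0.826% of WT and 14.5% of KI members, with 28.4 CPM summed over the erythroid list in KI. The p47phox gene Ncf1 had 0 UMIs in members of both libraries and 176 and 149 CPM (the UMIs of a gene summed over a class of cells and scaled to the depth of that class) in cells gated on Ptprc. A 3′ tag does not show whether a knocked-in allele is present, so Ncf1 does not check the genotype label.

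Lrat counts fell step by step from 0 across the threshold of the rule. Among stromal-gate cells 61.0% of WT and 84.2% of KI had 0 Lrat UMIs, 17.9% and 10.6% had 1, and 8.89% and 2.26% had 2. Members carried a median of 3 Lrat UMIs in both libraries, with a highest value of 24 in WT and 11 in KI, and 42.1% of WT and 43.6% of KI members sat at the threshold of 2. Cells just inside the rule, with 2 Lrat UMIs, had 2338 CPM of Aldh1a1 in WT and 1930 in KI, and cells just outside it, with 1, had 1737 and 2122. The threshold cuts through these falling counts, which the rule itself used. Whether the cells form a continuous range or separate groups was not tested.

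Lrat was rare in gated endothelial cells, epithelial cells and leukocytes. These gates took only cells with 0 UMIs of Col1a2, Col3a1 and Pdgfra. It was detected in 1.11% of WT and 0.622% of KI cells of an endothelial gate (median 3587 and 4043 UMIs), at 3.74 and 2.26 CPM. An epithelial gate had Lrat in 1.83% of WT and 0.615% of KI cells. In 94 WT and 55 KI cells of a leukocyte gate Lrat had 0 UMIs, which allows a share of up to 3.19% and 5.45%. In the stromal gate, at lower depth than the endothelial gate (2793 and 3046 UMIs), 39.0% and 15.8% of cells had a Lrat UMI. The stromal share lay above those of the other gates in both libraries, but these gates leave out mixed cells with collagen UMIs by definition. Cells with 2 or more Lrat UMIs that were not members did exist: before the collagen and marker limits there were 412 cells with 2 or more in WT and 137 in KI. Those with under 3 UMIs of the collagen and Pdgfra genes were 68 in WT and 29 in KI, at 841 and 710 CPM of Lrat, and those left out by Hhip were 23 and 20, at 258 and 582 CPM.

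**Figure D1:**
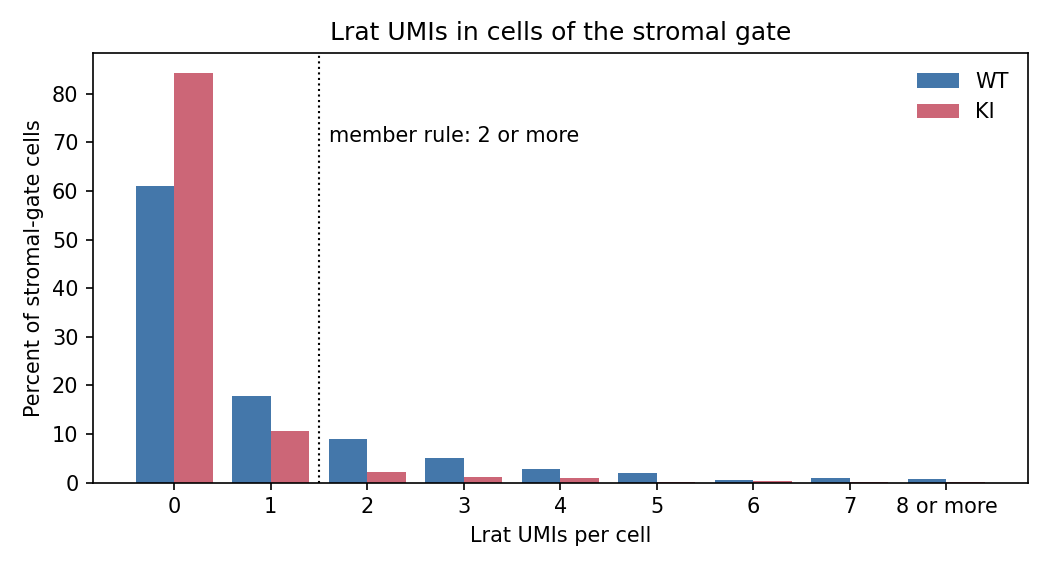
Percent of stromal-gate cells (y axis) with each number of Lrat UMIs (x axis) in the WT and KI libraries, with the member rule as a dotted line. The 0 class holds 61.0% of WT and 84.2% of KI cells, and counts fall without a gap across the threshold.

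Fewer stromal cells met the rule in the KI library. Members were 242 of 1147 stromal-gate cells in WT, or 21.1% (exact binomial 95% interval 18.8 to 23.6), and 55 of 1063 in KI, or 5.17% (3.92 to 6.68). Their log2 ratio, KI against WT, was −2.03 (−2.48 to −1.60), while the stromal gate itself held 13.6% and 14.8% of all cells. The Lrat level summed over the stromal gate was 280 CPM in the WT library. In the KI library it was 77.0 CPM, which gave a log2 ratio of −1.86 (−2.05 to −1.67).

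The gap was also present at equal depth. After each cell was thinned to 2000 UMIs, which left out 344 WT and 279 KI stromal cells too shallow for it, members made up 14.3% in WT and 2.04% in KI (log2 ratio −2.81, −3.67 to −2.05). The ratio was −2.28 in cells under 2000 UMIs, −2.77 between 2000 and 4000 and −1.89 between 4000 and 8000. In the few cells of 8000 UMIs or more the shares were 5 of 35 and 8 of 57, or 14.3% and 14%, with a log2 ratio of −0.03 (−1.82 to 1.93). The gap was thus seen in the 3 bins that hold most cells, and the deepest bin did not show it.

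Members were spread over several clusters. The stromal gate was clustered without the genes of the rule, and in 8 of the clusters members made up 15.3% to 41.3% of WT cells. Over all cells of these 8 clusters Npnt was at 196 to 2610 CPM and Inmt at 1336 to 8176 CPM, with the lowest Npnt in clusters 6 and 5 (196 and 274). Cluster 5, led by Fgl2 and Ccl2, held Pi16 at 393 CPM and Slc7a10 at 1.23, and cluster 1, which had few members, held Npnt at 499. Inmt, a methyltransferase gene, and Npnt, which encodes the basement membrane ligand nephronectin, mark alveolar interstitial fibroblasts. The fullest cluster of WT members, cluster 3, was led by Slc7a10, an amino acid transporter gene, Upk1b and Nebl, and held the Wnt ligand gene Wnt2 at 158 CPM.

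The cluster make-up of the members differed between the libraries. In cluster 3, 62 of 150 WT cells (41.3%) and 1 of 31 KI cells (3.23%) were members. In cluster 2, led by the neutrophil genes S100a9 and S100a8, the counts were 52 of 185 (28.1%) and 3 of 71 (4.23%), and S100a9 had 7 UMIs in all WT and 3 in all KI members. In cluster 0, led by Gria3, Nebl and Adra1a, they were 39 of 161 (24.2%) and 13 of 297 (4.38%). These are the 3 clusters that held most WT members, and in each the interval of the KI to WT ratio lay below 0. It also lay below 0 in cluster 4, led by Ppp1r3a, Mmp3 and Lpl, at −1.22 (−2.39 to −0.16). Members there were 26 of 89 WT cells (29.2%) and 11 of 88 KI cells (12.5%), which was 20% of KI members.

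In cluster 6 the shares were closer, on few cells. Its leading genes included Adh7, Aqp1, Apod and Igfbp6, it held Pi16 at 626 CPM and Col15a1 at 283 CPM, and its members were 10 of 57 WT cells (17.5%) and 12 of 77 KI cells (15.6%), with a KI to WT log2 ratio of −0.17 (−1.51 to 1.2). The intervals also spanned 0 in cluster 5 (−1.46, −3.86 to 0.32), cluster 7 (−1.39, −3.18 to 0.09) and cluster 9 (−1.08, −2.80 to 0.48), so they do not set cluster 6 apart from these. Members of cluster 6 were 4.13% of WT and 21.8% of KI members. Pi16 and Col15a1 are genes of fibroblasts around vessels and airways. When the clusters were weighted alike in WT and KI, the shares of members were 19.6% and 5.16%, with a log2 ratio of −1.92 beside −2.03 unweighted.

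Members were rare in the other stromal clusters. Cluster 1, led by Spp1, Pdzd2 and the pericyte genes Cox4i2 and Higd1b, had 2 members of 141 WT cells and 0 of 180 KI cells, which allows a KI share of up to 1.67%. Cluster 10, led by Scgb1a1, Hspb1 and Tnc, had 3 of 49 and 0 of 21, and cluster 14, led by Lyz2 and Sftpc, had 0 of 6 and 1 of 8. Cluster 8, led by Ptx3, Ccl11 and Il33, had 1 of 38 and 0 of 83. Clusters 11 (Acta2), 12 (Thbs4, Ackr4) and 13 (Cytl1, Chad) had 0 members in both libraries.

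**Figure D2:**
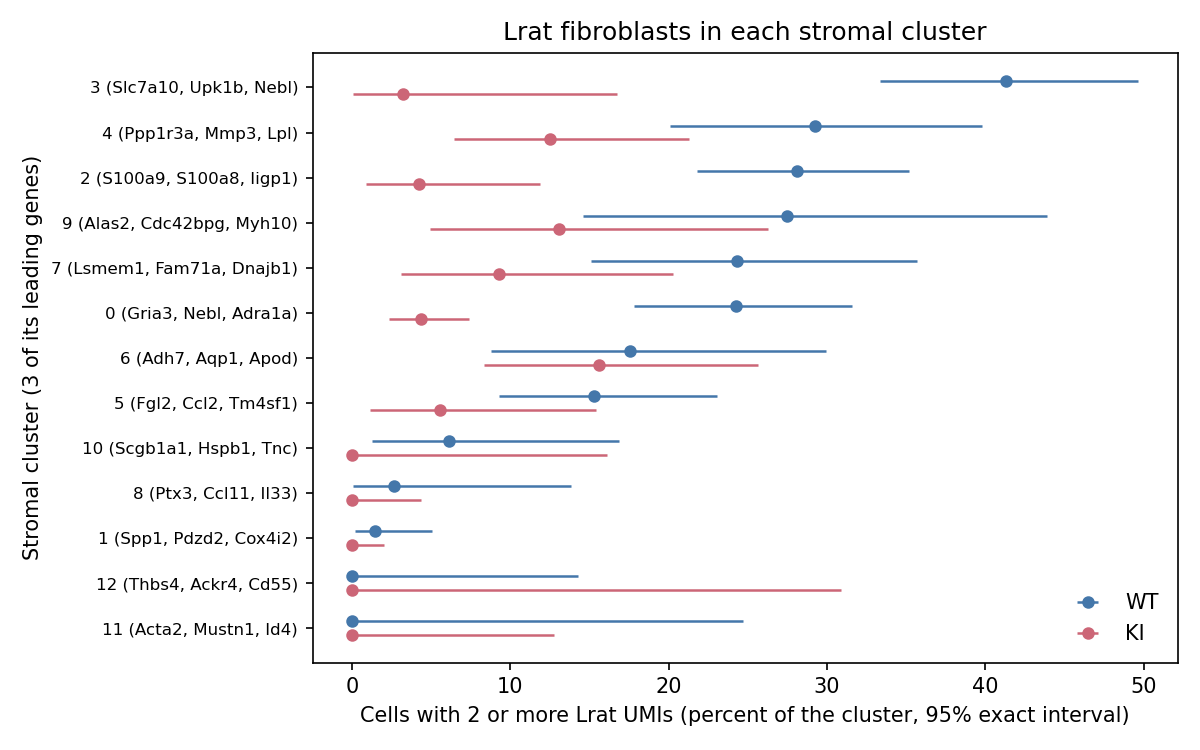
Share of cells with 2 or more Lrat UMIs (x axis, percent of the cluster with exact binomial 95% intervals) in each stromal cluster with at least 10 cells in both libraries (y axis, with 3 of its leading genes). WT shares reach 41.3% in cluster 3, KI shares stay at or below 15.6%, and the 2 libraries lie closest among the member-rich clusters in cluster 6.

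Some retinoid genes beside Lrat were high in the members and others were not detected. Aldh1a1, a retinal dehydrogenase gene, Adh1, an alcohol dehydrogenase gene, and Ces1d, a carboxylesterase gene, were higher in members than in stromal cells with 0 Lrat UMIs of the same library matched on depth (302 WT and 230 KI cells), in both libraries. The uptake receptor genes Stra6 and Stra6l, the binding protein gene Crabp2, the degrading enzyme genes Cyp26a1 and Cyp26c1 and the carotenoid oxygenase genes Bco1 and Bco2 had 0 UMIs in members of both libraries. A count of 0 in members allows up to 3.28 CPM in WT and 10.6 CPM in KI. Matched Lrat-0 cells were at or near 0 for these genes too, so the 0 counts do not set the members apart. Stra6 had 3 UMIs in WT and 1 in KI matched cells, Crabp2 1 and 3, Bco2 0 and 1, and the others 0 in both. Retinol and its esters were not measured, so the name of the cells rests on Lrat RNA and they are called Lrat fibroblasts here.

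Across all genes with at least 20 UMIs in members and matched cells together, 18.6% of 8843 in WT and 19.2% of 8319 in KI were above a log2 ratio of 0.5, and 16.8% and 18.7% were below −0.5. Of the 31 retinoid handling genes outside the rule, 15 had enough UMIs in each library. In WT 8 of them were above 0.5 (among them Dgat1, Dhrs3, Adh1, Aldh1a1, Lipe, Ces1d and Lpl) and 4 below −0.5 (Fabp5, Rdh10, Adh7 and Aldh1a3), with a median of 0.60 against 0.04 over all genes. In KI 6 were above (among them Rdh10, Adh1, Adh7, Aldh1a1 and Ces1d) and 3 below (Dgat1, Fabp5 and Aldh1a3), with a median of 0.38 against 0.04. The 95% intervals of these medians, taken over the genes of the list, spanned 0: −0.76 to 0.94 in WT and −0.34 to 0.91 in KI. Adh7, Rdh10 and Dgat1 lay on opposite sides in the 2 libraries, Dgat1 with 1 UMI in KI members.

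Aldh1a1 (chromosome 19, 20492715 to 20643465, plus strand), which oxidises retinal and other aldehydes, was at 2572 CPM in WT members (Poisson 95% interval 2469 to 2678) and 1907 in KI members (1749 to 2075). Matched Lrat-0 cells had 670 and 1017 CPM, so the log2 ratios were 1.94 (1.82 to 2.06) and 0.91 (0.76 to 1.05). When the Lrat-0 cells were given the cluster weights of the members they were 0.75 and 0.24. It was detected in 231 of 242 WT and 54 of 55 KI members, against 58.3% and 77.0% of matched cells, and after thinning in 92.2% and 91.8%. In endothelial cells Aldh1a1 was at 13.1 CPM in WT and 21.1 in KI. The other retinal dehydrogenase genes were nearly absent: Aldh1a2 had 1 UMI in WT and 0 in KI members, and Aldh1a3 had 2 and 0, while matched Lrat-0 cells had 45.8 and 18.5 CPM of Aldh1a3.

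Among the enzymes of the first oxidation step, Adh1 was at 169 CPM in WT members and 209 in KI, with log2 ratios over matched cells of 0.61 (0.26 to 0.96) and 0.82 (0.36 to 1.27). Dhrs3, a retinal reductase gene that retinoic acid is known to induce, was at 89.7 and 63.8 CPM, with ratios of 0.94 (0.42 to 1.47) and 0.36 (−0.49 to 1.15). The KI interval of Dhrs3 spans 0, and with the members' cluster weights its ratios were 0.33 and −0.28. Rdh10, a retinol dehydrogenase gene, had 33 UMIs in WT members and 9 in KI, with ratios of −1.32 (−1.93 to −0.74) and 1.00 (−0.33 to 2.21). At a mitochondrial limit of 5% both values of Rdh10 changed sign, to 0.68 and −0.32.

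Genes of ester and lipid hydrolysis were less uniform. Ces1d was at 818 CPM in WT and 670 in KI members, with ratios of 1.42 (1.23 to 1.61) and 1.09 (0.83 to 1.34), or 0.45 and 0.57 with the members' cluster weights. The lipase genes Lipe and Lpl were above matched cells in WT, at 1.01 (0.36 to 1.67) and 0.65 (0.16 to 1.15), but not in KI, at −0.16 (−1.25 to 0.79) and −0.18 (−0.77 to 0.37). With the members' cluster weights Lipe was at 0.26 in WT and −0.65 in KI. The WT value of Lpl turned to −0.16 without the cells of highest doublet score and to −0.49 at a minimum of 3 Lrat UMIs. Pnpla2, the triglyceride lipase gene, was at 0.20 (−0.11 to 0.50) and 0.23 (−0.24 to 0.69).

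Rbp4, which encodes the secreted retinol carrier, was detected in only 10.3% of WT and 18.2% of KI members. Its levels were 122 and 117 CPM against 171 and 150 in matched cells, log2 ratios of −0.48 (−0.83 to −0.14) and −0.35 (−0.94 to 0.19). It is among the leading genes of cluster 6.

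Receptors and targets of retinoic acid had ratios on both sides and medians near those of all genes. Of 22 genes 18 had enough UMIs, and 2 in WT and 3 in KI were above 0.5, with 5 and 3 below. The medians were 0.12 in WT and near 0 in KI. Over all genes 18.6% and 19.2% were above 0.5, and 16.8% and 18.7% were below −0.5. Hoxb5, a homeobox gene, was above in both libraries, at 0.81 (−0.03 to 1.66) and 0.80 (−0.22 to 1.73), with intervals that span 0. Foxf1, a mesenchymal transcription factor gene, was below in both, at −1.45 (−1.88 to −1.03) and −0.55 (−1.33 to 0.16). With the members' cluster weights Foxf1 was at −0.36 in WT and −0.009 in KI, and Hoxb5 at 0.72 and 0.31. Rarb, whose promoter sequence carries the direct repeat shown above, had 2 UMIs in WT members and 3 in KI members, too few to place.

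Against matched cells more genes of the hepatic stellate type were low than high in the members, and lipid droplet genes stood near the shares of all genes. Reln, a gene of liver stellate cells, had 0 UMIs in members of both libraries, but was found in only 0.66% and 0.43% of matched cells. Hgf, another gene of that type, was detected in 23.1% of WT and 30.9% of KI members, against 24.5% and 26.1% of matched cells. Pparg, the lipid regulator gene, was found in 2 WT and 0 KI members. Of 13 measured genes of the stellate-type list, 3 in WT (Pth1r, Ntf3 and Adamtsl2) and 1 in KI (Adamtsl2) were above 0.5. Below −0.5 were 5 and 7, Des and Dcn among them in both libraries. With the members' cluster weights Des was not low, at 0.17 in WT and 0.48 in KI. The medians were −0.26 (−2.40 to 1.17) and −0.86 (−1.31 to 0.22), with intervals that span 0. Plin2, the lipid droplet coat gene, was at 189 CPM in WT and 120 in KI members, with ratios over matched cells of 0.25 (−0.06 to 0.56) and −0.17 (−0.74 to 0.37). Of the lipid droplet list 4 of 18 measured genes in WT and 2 of 17 in KI were above 0.5, and 3 and 4 below −0.5. Over all genes 18.6% in WT and 19.2% in KI were above, and 16.8% and 18.7% below.

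**Figure D3:**
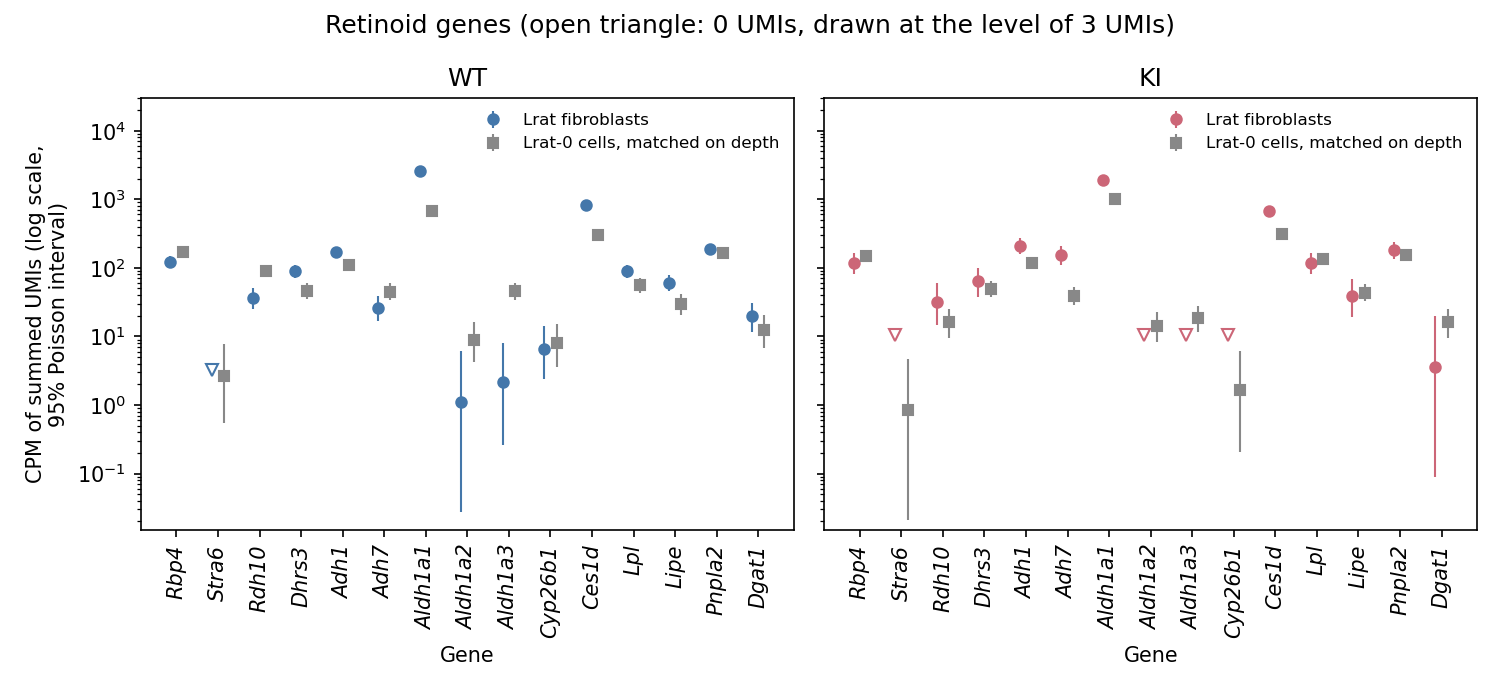
Level of 15 retinoid and lipid genes (y axis, CPM of summed UMIs on a log scale, with Poisson 95% intervals) in Lrat fibroblasts (circles) and depth-matched Lrat-0 cells (squares) of each library. Aldh1a1 stands at 2572 CPM in WT and 1907 in KI members, above its matched cells in both. Stra6 has 0 UMIs in members of both, and 3 UMIs in WT and 1 in KI matched cells.

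Beyond retinoid genes, alveolar fibroblast genes were higher and pericyte genes lower in members than in matched Lrat-0 cells. Of 8034 genes measured in both libraries, 549 (6.83%) were above 0.5 and 534 (6.65%) below −0.5 in both. When the Lrat-0 cells were given the cluster weights of the members these became 122 and 290.

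The genes with the highest ratio in both libraries were taken, 15 in all, from genes that reached 50 CPM and were detected in 10% of members in each library. Cdc42bpg, a kinase gene of the actin cortex, had ratios of 1.90 (1.13 to 2.73) in WT and 1.49 (0.48 to 2.46) in KI. Scn3a, a sodium channel gene, had 1.47 (1.09 to 1.86) and 1.63 (1.08 to 2.16), and Adra1a, the alpha-1A adrenergic receptor gene, 1.58 (0.97 to 2.22) and 1.30 (0.61 to 1.97). Gyg, which encodes the primer of glycogen synthesis, was at 304 CPM in WT and 315 in KI members against 115 and 129 in matched cells. The others were Znrf2, Isoc1, Robo1, Fam171a1, Adamts8, Ankrd13a, Kcna2, Mmd, Myh10, Scube2 and Ptgs1.

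These genes differed in how much of the ratio was left inside the clusters. Against Lrat-0 cells with the members' cluster weights, Znrf2 kept 0.98 in WT and 0.92 in KI, Isoc1 0.72 and 0.96, Cdc42bpg 0.80 and 0.62, and Gyg 0.59 and 0.80. Scn3a fell to 0.20 and 0.42, Adra1a to 0.18 and 0.17, and Kcna2 to 0.22 and −0.25. Znrf2, a ubiquitin ligase gene, was at 53.6 CPM in WT and 56.7 in KI members, against 18.5 and 22.7 in matched cells.

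Of the 10 lowest genes, with the same limits set in matched cells, 6 were among the leading genes of cluster 1. Postn, a matrix gene, was at 12 CPM in WT members and 769 in matched cells, a ratio of −6.00 (−7.01 to −5.15), and at 3.54 and 302 in KI. Cox4i2, a pericyte gene of the respiratory chain, was at 26.2 CPM in WT members and 855 in matched cells, and had 0 UMIs in KI members against 318 CPM in matched cells. Higd1b, Vtn, Fam162b, Ndufa4l2, Kcnk3 and Trpc6 also had 0 UMIs in KI members, and Spp1 and Ebf1 completed the set. Of 9 measured pericyte markers 8 were below −0.5 in each library, with medians of −4.42 and −3.87. In WT these sizes were smaller against Lrat-0 cells given the members' cluster weights: Postn was at −1.61, Spp1 at −0.61, Cox4i2 at −0.42 and Trpc6 at 0.16. The others of the set lay between −2.49 (Fam162b) and −0.89 (Kcnk3) in WT. With these weights in KI, Postn was at −2.65, Spp1 at −3.61 and Ebf1 at −1.81, and the others had 0 UMIs in members.

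Alveolar fibroblast genes stood high as a group. Of 20 measured in WT 16 were above 0.5 and 0 below, with a median of 1.16, and of 19 measured in KI 12 were above and 0 below, with a median of 0.71. Inmt was at 6803 CPM in WT members and 4455 in KI, with ratios of 1.5 (1.43 to 1.56) and 1.09 (0.99 to 1.19). Npnt was at 1632 and 1453 CPM, with 1.26 (1.13 to 1.39) and 0.94 (0.77 to 1.11). With the cluster weights of the members the medians fell to 0.30 and 0.07, and under a gate with 0 UMIs of the muscle, ductal and endothelial genes (27 KI members) the KI median was −0.03.

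Adventitial fibroblast genes stood low. Of 21 measured in WT 16 were below −0.5 and 1, Pcolce2, above 0.5, with a median of −1.74, and of 20 in KI 12 were below and 1, Igfbp6, above, with a median of −0.59. Ly6a, a surface antigen gene of adventitial cells, was at 185 CPM in WT members and 252 in KI, with ratios of −2.04 (−2.28 to −1.80) and −1.54 (−1.91 to −1.19). Dcn, the decorin gene, was at 675 and 1581 CPM against 3559 and 5775 in matched cells. The KI median of the adventitial list was 0.15 under the stricter gate.

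Most measured chemokine and cytokine genes were lower in members than in matched Lrat-0 cells of each library. Over all genes 16.8% in WT and 18.7% in KI were below −0.5, and 18.6% and 19.2% above 0.5. The minimum of 20 UMIs counts members and matched cells together, so a gene can pass it through the matched cells alone. Ccl11 and Il33 are among the leading genes of cluster 8, which held 1 WT and 0 KI members. Of 17 measured in WT 15 were below −0.5 and 0 above, with a median of −2.51 (−2.76 to −1.75). Of 11 in KI 7 were below and 1, Tnfsf13b, above, with a median of −1.01 (−6.08 to 0.10), whose interval spans 0. Ccl2, the monocyte chemoattractant, was at 41.5 CPM in WT members against 272 in matched cells. In KI members it was at 49.6 CPM against 2.52, from 2 members with a UMI. Il33, an alarmin gene, was low in both libraries, at −2.80 (−3.64 to −2.05) and −2.87 (−4.76 to −1.47).

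Some growth factor genes of the alveolar niche were higher in both libraries. Bmp5 had ratios of 1.02 (0.73 to 1.30) in WT and 1.45 (1.00 to 1.88) in KI, Wnt2, which supports alveolar epithelial progenitors, 1.51 (0.98 to 2.05) and 1.13 (0.08 to 2.11), and Bmp3 1.56 (1.18 to 1.96) and 1.10 (0.42 to 1.76). Fgf7 and Angpt1, ligands of epithelium and endothelium, were above 0.5 in both libraries as well. Of the list 10 of 24 measured genes were above and 6 below in WT, and 5 and 5 of 23 in KI, where the KI shares are near those of all genes (19.2% and 18.7%).

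Nox4, an oxidase gene that works without p47phox, was at 336 CPM in WT members and 386 in KI, with ratios of 1.37 (1.09 to 1.67) and 0.99 (0.65 to 1.33). Against Lrat-0 cells with the members' cluster weights it was 0.08 and 0.07. The metallothionein genes Mt1 and Mt2 were lower in members in both libraries, at −0.96 and −1.09 in WT and −0.73 and −0.88 in KI.

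**Figure D4:**
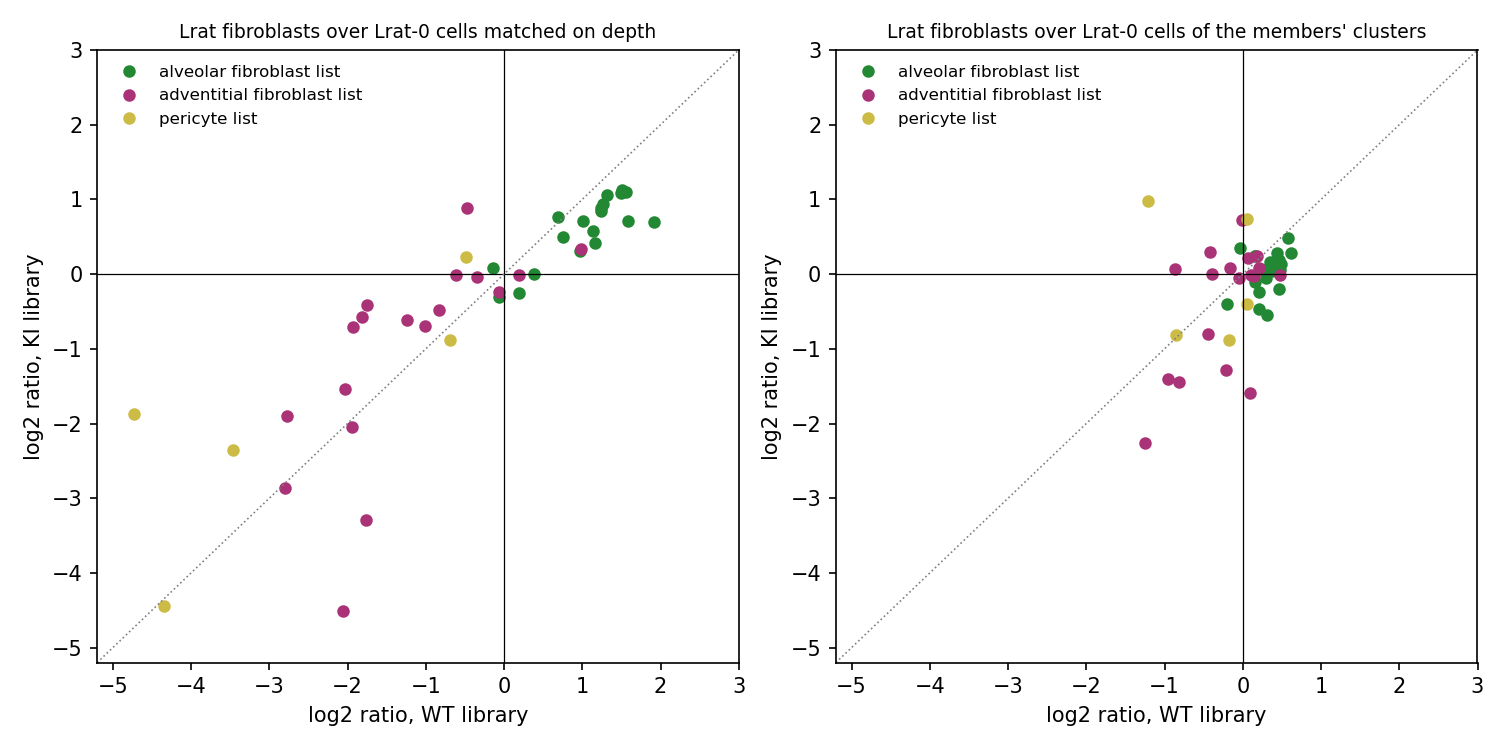
Log2 ratio of Lrat fibroblasts over Lrat-0 cells in WT (x axis) and KI (y axis) for genes of the alveolar, adventitial and pericyte lists that have UMIs in members of both libraries, matched on depth (left) and with the cluster weights of the members (right). On the left the alveolar medians are 1.16 in WT and 0.71 in KI, and on the right they are 0.30 and 0.07.

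Markers of other cell types were checked in the members. Epcam and Cdh1 of epithelium, Msln, Upk3b, Wt1 and Lrrn4 of mesothelium, Ptprc, Cd52, Coro1a and Laptm5 of leukocytes and Sox10 and S100b of glia had 0 UMIs in members of both libraries (Epcam and Ptprc by the rule). The other members of these lists were not all at 0. Upk1b, a mesothelial-list gene that also led cluster 3, was at 208 CPM in WT and 106 in KI members, with log2 ratios over matched cells of 1.49 (1.11 to 1.88) and 0.34 (−0.30 to 0.94). The mesothelial list summed to 227 and 120 CPM in members against 288 and 215 in matched cells. The endothelial list summed to 284 CPM in WT and 273 in KI members, and the leukocyte list to 75.4 and 78.0. Summed over the list, pericyte markers were at 166 CPM in WT and 159 in KI members, against 2382 and 1151 in matched cells. Surfactant RNA was present: Sftpc was at 375 CPM in WT and 486 in KI members, with a UMI in 75.2% and 94.5% of them. The epithelial list summed to 818 and 783 CPM in members and to 2641 and 6283 in matched Lrat-0 cells, and the erythroid list to 2862 CPM in matched KI cells. Its part in the results was not tested.

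Between the libraries, Lrat fibroblasts of KI had more RNA of Igfbp5, Fbln2 and Col1a1 and less of Tmem119, Cyr61 and 8 of 20 alveolar genes. Of 7333 genes with at least 20 UMIs in members of both libraries together, 18.1% were above a log2 KI to WT ratio of 0.5 and 17.2% below −0.5. These are shares of 2 libraries with no replicate. The 12 highest and 12 lowest genes were named by the bound of the counting interval nearest 0, from genes that reached 50 CPM and were detected in 10% of members in either library.

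Of the higher genes, Igfbp5, a binding protein of insulin-like growth factors, was at 39.4 CPM in WT members and 337 in KI, a ratio of 3.10 (2.53 to 3.69). Fbln2, a fibulin of the matrix, was at 60.1 and 248 CPM (2.04, 1.51 to 2.58), and Htra3, a secreted protease gene, at 59.1 and 220 (1.90, 1.35 to 2.45). In members of cluster 6 alone Igfbp5 had 5 UMIs in 10 WT cells and 83 in 12 KI cells. Outside cluster 6 the ratios were 0.69 (−0.41 to 1.69) for Igfbp5, 0.16 (−0.95 to 1.15) for Fbln2 and 0.14 (−0.83 to 1.01) for Htra3.

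Adh7, the only retinoid gene among the named ones, was at 26.2 CPM in WT members (16.8 to 39.0) and 152 in KI (110 to 205), a ratio of 2.54 (1.79 to 3.32). Cluster 6 held 39 of its 43 KI UMIs and 14 of its 24 WT UMIs, and within that cluster the ratio was 0.79 (−0.12 to 1.79). With clusters weighted alike it was 0.99. For genes these equal weights used 7 clusters, with 174 of 242 WT and 53 of 55 KI members. Cluster 3, with 62 WT members and 1 KI member, was not among them. In stromal cells with 0 Lrat UMIs Adh7 was at −0.38. Osr2, Ntrk2 and Cpxm2 were likewise mostly in cluster 6, with 13 of 15, 29 of 32 and 12 of 15 of their KI UMIs there.

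A few of the higher genes rested on single cells. Usp37, a deubiquitinase gene, had 30 of its 39 KI UMIs in 1 member, and its ratio of 2.81 fell to 0.80 without it. Apod, an apolipoprotein gene, had 55 of 117 KI UMIs in 1 member, with a ratio of 1.84 and 0.96 without it. Cxcl10, the interferon-induced chemokine gene, had the highest ratio bound, at 4.22 (2.67 to 6.21), from 4 UMIs in 4 WT members and 23 UMIs in 6 KI members, 13 of them in 1 member, and 2.99 without it. Stc2, a stanniocalcin gene, had 8 of 17 KI UMIs in 1 member, with a ratio of 2.61 and 1.73 without it. Aspn was the other, at 2.76.

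Among the lower genes, Tmem119 and Cyr61 had UMIs in many WT members. Tmem119, a membrane protein gene of osteoblast-type mesenchyme and microglia, was at 247 CPM in WT members (216 to 282) and 42.5 in KI (22.0 to 74.3), detected in 122 of 242 and 9 of 55. Its ratio was −2.54 (−3.51 to −1.71), against −0.51 (−0.77 to −0.25) in stromal cells with 0 Lrat UMIs. Cyr61 (chromosome 3, 145646976 to 145649981), a matricellular target of YAP and TEAD factors, was at 1436 CPM in WT (1359 to 1516) and 383 in KI members (314 to 462). Its ratio of −1.91 (−2.20 to −1.62) compares with −1.04 in Lrat-0 cells, and outside cluster 6 it was −1.53 (−1.83 to −1.24).

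Mat2a, which makes S-adenosylmethionine, was at 1089 and 393 CPM, a ratio of −1.47 (−1.77 to −1.19), against −0.38 in Lrat-0 cells. Slc7a10 was at 294 and 106 CPM, a ratio of −1.47 (−2.06 to −0.92), against −0.07 in Lrat-0 cells. It was −0.69 with equal cluster weights, which leave out cluster 3, the cluster that Slc7a10 leads. Ch25h, cholesterol 25-hydroxylase, was at 88.6 and 14.2 CPM, a ratio of −2.64, beside −2.10 in Lrat-0 cells. Spon2, Rhbdd2, Ccdc85b, Bcr, Slc9a8, Kcns3 and Wisp2 completed the set, between −2.97 and −1.66. Bcr turned to 0.29 when cells with 1 Lrat UMI were counted as members.

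**Figure D5:**
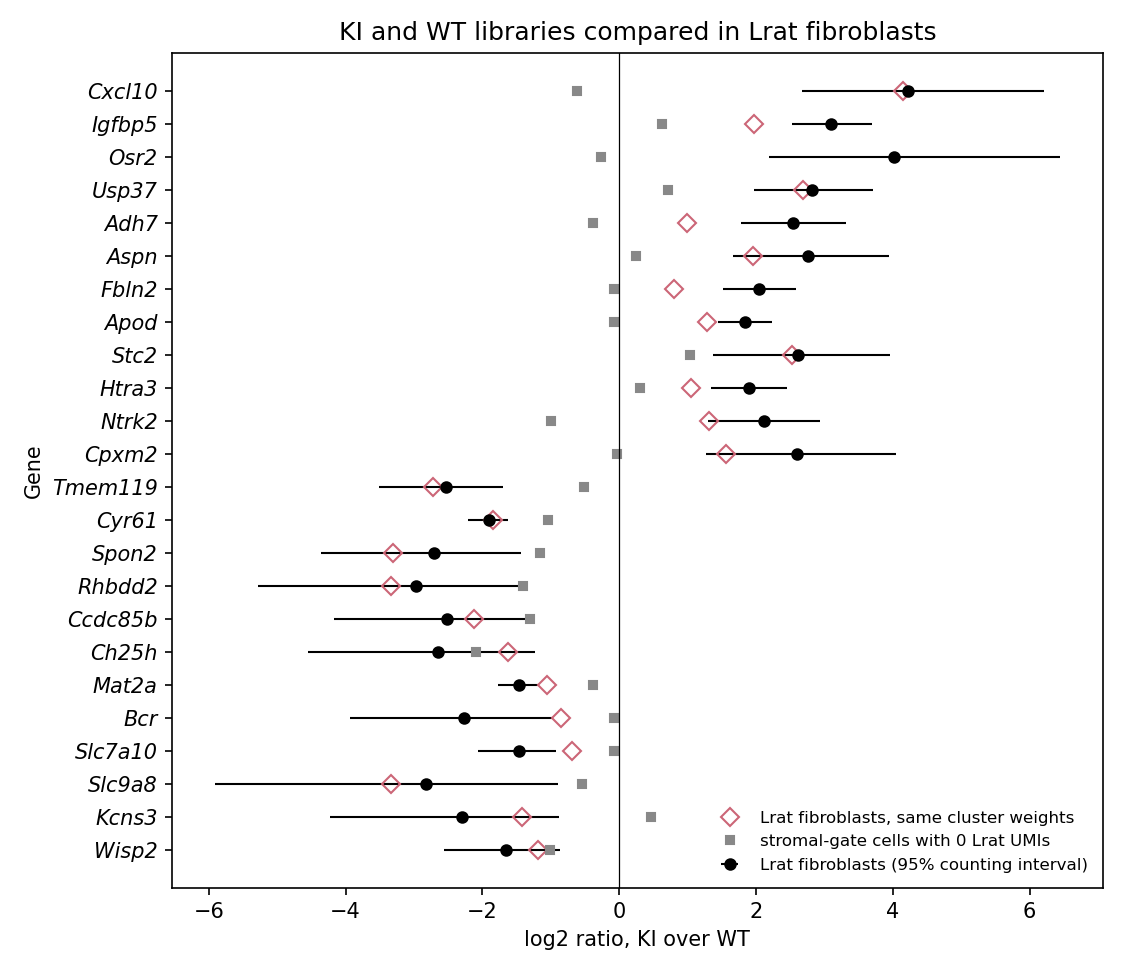
Log2 ratio of KI over WT (x axis) for the 24 named genes (y axis) in Lrat fibroblasts with the 95% counting interval (circles), with clusters weighted alike (diamonds, which Osr2 lacks) and in stromal-gate cells with 0 Lrat UMIs (squares). Adh7 moves from 2.54 to 0.99 with equal weights, and Tmem119 stays below −2. The equal weights cover 7 clusters, without cluster 3.

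Alveolar fibroblast genes were lower in KI members as a group, and 8 of 16 adventitial ones were higher. Of 20 alveolar genes 8 were below −0.5 and 0 above, with a median of −0.39 against 0.02 over all genes. In stromal cells with 0 Lrat UMIs 2 were below and 2 above, with a median of −0.07, where 19.8% of all 11207 measured genes were above and 7.8% below. Inmt had a ratio of −0.61 (−0.70 to −0.52), Bmp3 −0.99 (−1.60 to −0.43) and Wnt2 −1.15 (−2.08 to −0.34). The median was −0.38 with equal cluster weights and −0.20 with 55 WT members matched to the depth of KI members.

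Of 16 adventitial genes 8 were above 0.5 and 2 below −0.5, where 18.1% of all genes measured in members were above and 17.2% below. Their median of 0.55 had a 95% interval over genes of −0.26 to 0.99, which spans 0, and was 0.02 with equal cluster weights. Pi16 was at 82.0 and 227 CPM in WT and KI members and Serpinf1, an antiangiogenic factor gene, at 91.8 and 280. Of 17 collagens outside the rule 8 were above and 0 below, with a median of 0.50 (−0.16 to 0.69), or 0.20 with equal weights. Col1a1 was at 823 CPM in WT members and 1634 in KI, a ratio of 0.99 (0.82 to 1.16), beside 0.09 in Lrat-0 cells. Col6a1, Col6a2 and Col6a3 were at 0.50, 0.69 and 0.52 in members and at −0.15, −0.29 and −0.18 in Lrat-0 cells.

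Of 19 injury matrix genes 2, Ltbp2 and Acta2, were above 0.5 and 5 (Thbs1, Spp1, Lox, Lcn2 and Cyr61) below −0.5, with a median of −0.19, the same as in Lrat-0 cells. Over all genes measured in members 18.1% were above 0.5 and 17.2% below −0.5, near the shares of the injury matrix list. In Lrat-0 cells 19.8% of all genes were above and only 7.8% below, so counts in the 2 classes have unlike backgrounds. Redox, inflammation and growth factor genes were mostly level or lower in KI members. Of 20 redox genes 8 were below −0.5 and 1, Gsr, above, with a median of −0.43, and in Lrat-0 cells 8 of 22 were below, with −0.21. Gpx3, the secreted glutathione peroxidase gene, was at 6440 and 3817 CPM, a ratio of −0.75 (−0.85 to −0.66), beside −0.04 in Lrat-0 cells. Of 18 genes of NF-kB and inflammation 8 were below and 2, Tnfaip6 and Irf1, above, with a median of −0.40 (−1.22 to 0.08) beside −0.46 in Lrat-0 cells. Growth factor genes had 8 of 20 below and 0 above, among them Vegfd at −0.69 (−1.04 to −0.36), beside 0.28 in Lrat-0 cells.

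Retinoid genes as a group had a KI to WT median near 0. Of 12 measured in members 1, Adh7, was above 0.5 and 1, Lipe, below −0.5, with a median of −0.06. Lipe turned to 0.19 when cells with 1 Lrat UMI were counted as members. Adh1 had a ratio of 0.30 (−0.15 to 0.74) and Ces1d −0.29 (−0.53 to −0.06). Aldh1a1 was lower in KI members, at −0.43 (−0.57 to −0.30), and outside cluster 6 at −0.18 (−0.32 to −0.04), while in Lrat-0 cells it was higher, at 0.58. Lrat itself, counted only in cells that passed the rule, was at 911 CPM in WT and 656 in KI members.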

How the data were processed

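The authors deposited raw UMI counts per gene and barcode, 1 matrix per library, from lung cells of WT and p47phox-KI mice. Tools listed in the submitters' processing notes are Cell Ranger (2.0), R (3.5.3) and Seurat (2.3.4), with build mm10, while the matrix headers carry version 3.0.2, per the file headers. Of 31053 genes 30934 were found in GENCODE M21 on GRCm38. Counts were read in python 3.11.15 (scipy 1.17.1) and summed over cells of a class, and CPM is that sum scaled to the total UMIs of the class. Log2 ratios carry conditional binomial 95% intervals, levels exact Poisson and shares Clopper-Pearson intervals, all for counting error only. List medians, the counts and shares of genes above 0.5 or below −0.5, and the alternatives add 0.5 to each count. Lrat-0 cells were drawn without replacement to match the members' depth in 10 bins.

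The stromal gate was clustered with scanpy 1.11.5 and leidenalg 0.10.2 (2000 variable genes without those of the rule, 30 components, 15 neighbours, resolution 1). Scrublet's automatic threshold marked 0 doublets; removing the top 0.8% per 1000 barcodes (877 WT, 665 KI) is an alternative, and the rule itself drops many mixed cells. Genes named are the 15 highest and 10 lowest over Lrat-0 cells in both libraries, the 12 highest and 12 lowest KI to WT ratios by interval bound, both with at least 50 CPM and 10% of cells and without genes of the rule, mitochondrial, ribosomal, sex-linked, haemoglobin and unnamed genes and genes more than 20 times higher in another gate, retinoid genes, and the furthest members of each list. Other alternatives were the gates, the Lrat minimum, scaling, per-cell means, count minimums and cluster resolution. Equal cluster weights, depth-matched WT members, cluster weights for Lrat-0 cells and leaving out the member with most UMIs were added after seeing the data. Members and lists were chosen with earlier results of these data known. Sums and intervals were tested on simulated data. Results on some genes are not reported here.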

Additional observations from a re-analysis of the deposited data

How the results depend on the processing

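No paired analysis was possible because each genotype has 1 library. Among single genes and lists 1741 recomputed values kept their direction and size, 218 moved and 20 changed sign; among the values that answer a comparison 49 kept and 15 moved. The cause of each move below was not tested.

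The KI to WT ratio of the member share (−2.03) was −1.30 at a minimum of 1 Lrat UMI and −2.81 after thinning, and that of the Lrat level (−1.86) was −2.06 at a mitochondrial limit of 5%. Genes above and below in both libraries (549 and 534) were 362 and 313 at that limit, 181 and 263 under the stricter gate, and 122 and 290 with the cluster weights of the members. KI to WT counts (1326 and 1263) were 512 and 609 at a minimum of 50 UMIs, and the lower count was 749 with depth-matched WT members. The fullest cluster held 25.6% of WT members, 44.6% at resolution 0.5 and 38.8% with each library clustered alone, and for KI 23.6% and 47.3%.

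Signs changed as follows. At the 5% limit, over Lrat-0 cells, Rdh10 was 0.68 in WT and −0.32 in KI and Lpl −0.074 in WT. Lpl was −0.16 without the highest doublet scores. The stricter gate gave KI medians of −0.028 for alveolar and 0.15 for adventitial genes, and −0.00274 for Fam171a1. At 3 Lrat UMIs Lpl was −0.49 in WT and Rdh10 −0.89 in KI. At 1 Lrat UMI the KI to WT ratios of Bcr and Lipe were 0.29 and 0.19, and Fabp5 in WT 1.44. With every gene of 1 UMI kept, the WT retinoid median was −0.052. With depth-matched WT members Lipe was 0.065. With the cluster weights of the members, Trpc6 was 0.14, Dgat1 −0.24 and Adh7 0.18 in WT, and Kcna2 −0.24, Mmd −0.074 and the peribronchial median 0.30 in KI.

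Only 55 KI members set the precision of every KI value: a gene needs 10.6 CPM to give 3 UMIs there.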

Other observations

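Cells with 2 or more Lrat UMIs that the rule left out were also counted. In WT 75 and in KI 35 were left out by Cldn5 and Cdh5, genes of endothelium, of which 49 and 17 had a doublet score among the highest. Epcam left out 34 and 14, of which 26 and 6 had such a score, against 2 of the members in each library. Hhip, a gene of peribronchial and ductal stroma, left out 23 and 20, with 6 and 2 such scores. A further 68 WT and 29 KI cells had fewer than 3 UMIs of the collagen and Pdgfra genes.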
